A study of Homo sapiens with 6 samples.

Results

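The 7 genes described here move cholesterol and other lipids into, out of and within cells: the apolipoproteins *APOC1* and *APOE*, the lipoprotein receptors *LRP10*, *SCARB1* and *LRP8*, and the late endosomal cholesterol transporters *NPC1* and *NPC2*. They were chosen by name, and every probeset that the platform annotation assigns to 1 of them was taken, which gave 9 of the 16569 probesets and 7 of the 9586 named genes in the deposited values. *APOE* and *SCARB1* had 2 probesets each and the other 5 genes had 1 each. The list was drawn up with earlier results of these arrays known, so the number of its genes that changed is a description of these genes only.

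HEK293T, a line of human embryonic kidney cells with the SV40 large T antigen, was transiently transfected with a plasmid holding the coding region of *USF1* behind a polyhistidine tag, or with the empty vector. Total RNA was taken 48 hours later and hybridized to Affymetrix expression arrays, 3 for USF1 and 3 for Empty vector. All 6 arrays therefore come from 1 cell line at 1 time, and the cells of both groups were transfected with plasmid. Each array measured a whole culture, in which a larger share of responding cells and more RNA per cell cannot be told apart. No source used here says whether the replicates were separate transfections, so p-values measure the spread among these arrays only, and that may be technical.

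*USF1* encodes a basic helix-loop-helix leucine zipper protein that binds E-box sequences. Lipoproteins carry cholesterol esters and triglycerides in plasma under a coat of phospholipid and apolipoproteins, and the apolipoproteins decide which receptors and enzymes a particle meets. Receptors of the LDL receptor family take particles up by endocytosis, while scavenger receptor class B type 1 removes cholesterol esters from HDL at the cell surface. Cholesterol set free in late endosomes and lysosomes leaves them through the soluble protein NPC2 and the membrane protein NPC1, and a loss of either causes Niemann-Pick disease type C.

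Values are RMA expression on the log2 scale, in which a difference of 1 is a doubling. USF1 minus Empty vector was fitted with limma over the whole array, with Benjamini-Hochberg adjustment over all probesets, and a gene is said to have risen or fallen where the adjusted p-value was under 0.05. The single probeset of *USF1* gave 4.79 ± 0.13 (SD, n = 3) in USF1 arrays and 4.86 ± 0.43 (SD, n = 3) in Empty vector arrays. The position of its probes is not given here, so it is no check of the plasmid transcript. Empty vector replicate 1 stood apart, with an SD of differences of 0.336 from each of the other Empty vector arrays, against 0.182 between those and 0.149 to 0.222 among the USF1 arrays. Actin 5′ minus 3′ values, a sign of RNA quality, were -0.681 to -0.493 in USF1 arrays, and -1.34, -1.04 and -0.52 in Empty vector replicates 1, 2 and 3. Those of GAPDH were -0.345 to -0.322 in USF1 arrays, and -0.582, -0.316 and -0.256 in Empty vector replicates 1, 2 and 3. The part of RNA quality in the differences below was not tested, and that of each of the 7 genes is also given without Empty vector replicate 1. Of 11 marker genes fixed for HEK293T, 6 were measured, with a summed log2 value of 44.4 to 45.3 in USF1 arrays and 44.6 to 45.7 in Empty vector arrays. The neurofilament gene *NEFM* and vimentin (*VIM*) were the brightest of them, and at the brightest probeset of each gene 0 rose and 1 fell, *INA* by 0.39 (SE 0.08), while *NEFL* rose at its other 2 probesets (0.38 and 0.41). None of 8 hepatocyte, 8 macrophage and 7 fibroblast markers and 1 of 7 adipocyte markers (*PPARG*) was among the measured genes.

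Both apolipoproteins and the receptor *LRP10* rose upon over-expression of *USF1*. *APOC1* was 2.37-fold higher, *APOE* 1.87-fold and *LRP10* 1.65-fold. The *APOE* fold was read at a dimmer signal. Every *APOE* value lay below 5.88, the lowest of the array medians, while each value of *APOC1* and *LRP10* lay above the median of its array. Both *APOE* probesets remained when the dimmest 25% of probesets were removed, by a filter on the mean over all 6 arrays. Their means were 5.02 and 4.96 over all arrays, and 4.57 and 4.66 in Empty vector arrays. The higher USF1 values entered the mean that was filtered, so this is no check of the dim signal. The remaining receptors, *SCARB1* and *LRP8*, had higher means by 1.32-fold and 1.25-fold that did not pass the test, and *NPC1* and *NPC2* lay within the spread of the arrays. Of the 7 genes 3 rose and 0 fell with limma, where 5.18% of all named genes rose, 8.89% fell and 14.1% changed in either direction. By probeset, 4 of 9 rose and 0 fell, against 4.32% and 7.6% of all probesets (11.9% in either direction), and 5 of the 7 genes had an unadjusted p-value under 0.05, as 31.3% of all probesets did. Over all probesets 715 rose and 1259 fell, and 1041 rose and 815 fell once array medians were made equal, with the signs of the 7 genes the same. The median log2 difference was 0.40 over the 7 genes and -0.08 over all named genes. The groups were apart, with USF1 above, at 5 of the 9 probesets and at 11.6% of all probesets.

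**Figure D1:**
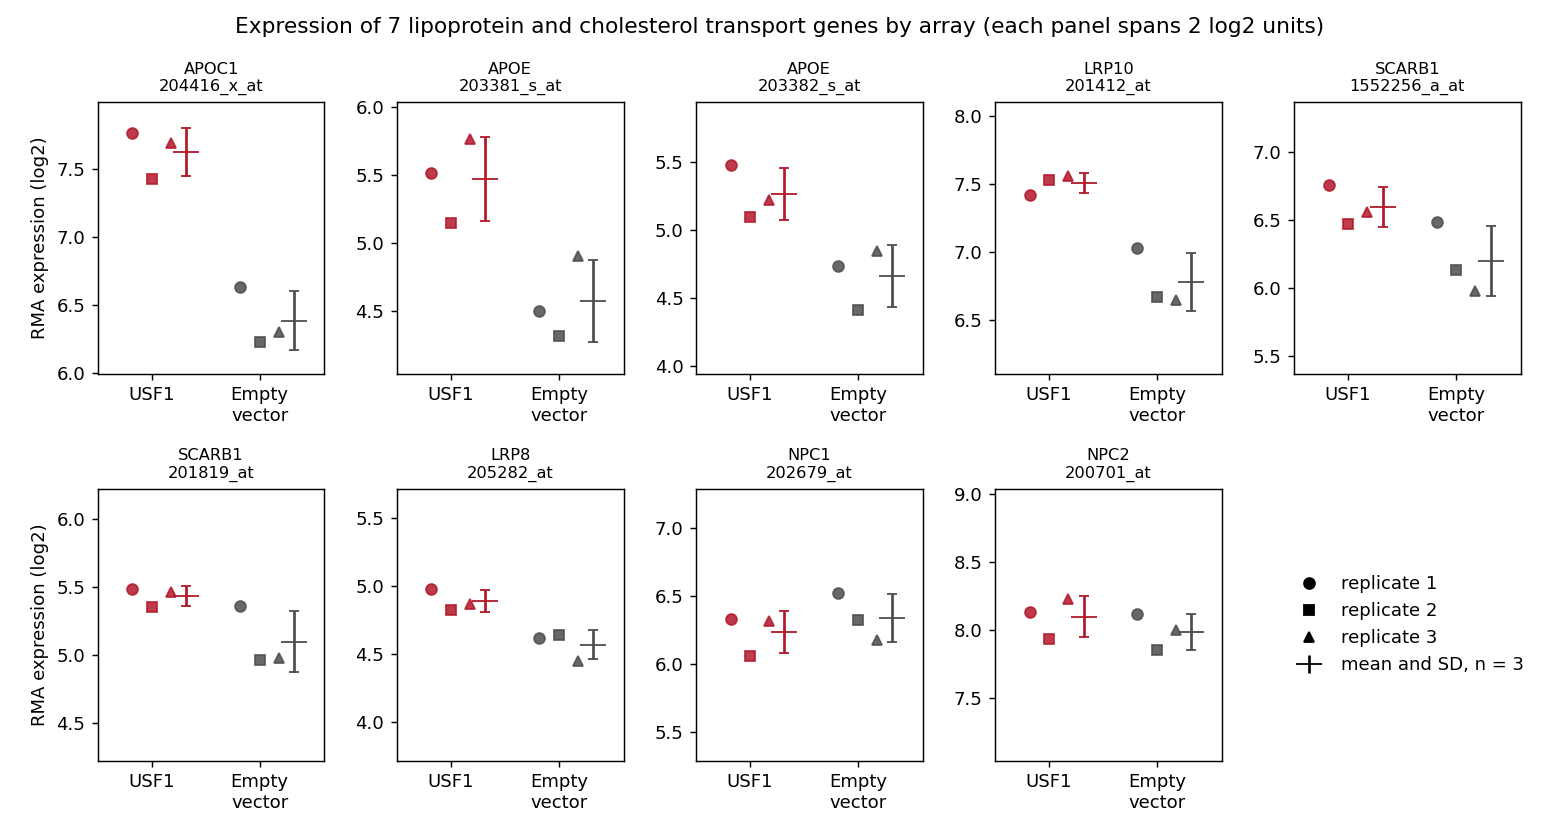
RMA expression (log2, vertical axis) of the 9 probesets of the 7 genes, 1 point per array in red for USF1 and grey for Empty vector, with the mean and SD of 3 arrays beside the points. The groups lie apart for *APOC1*, both probesets of *APOE*, *LRP10* and *LRP8*, and overlap for *SCARB1*, *NPC1* and *NPC2*.

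*APOC1* encodes a small exchangeable apolipoprotein of triglyceride-rich particles and HDL that inhibits lipoprotein lipase and cholesteryl ester transfer protein. Its probeset 204416_x_at read 7.76, 7.43 and 7.69 in USF1 arrays, against 6.63, 6.22 and 6.30 in Empty vector arrays. The lowest USF1 array lay 0.80 above the highest Empty vector array. The mean was 7.63 ± 0.18 (SD, n = 3) in USF1 arrays and 6.38 ± 0.22 (SD, n = 3) in Empty vector arrays, a log2 difference of 1.24 (SE 0.13, 95% interval 0.94 to 1.55, limma adjusted p-value = 0.00264). It was the 36th largest rise among the 16569 probesets. *APOC1* was called when any 1 of the 6 arrays was left out, with differences from 1.16 to 1.37, and the difference was 1.37 (limma adjusted p-value = 0.000208) without Empty vector replicate 1. The suffix of this probeset marks probes that may bind other transcripts, and the pseudogene *APOC1P1* lies near the gene on chromosome 19, so a share of its signal cannot be told apart from *APOC1* transcripts. The authors masked nonspecific probes, and which probes of this probeset remained is not given here.

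*APOE* encodes the apolipoprotein E that binds receptors of the LDL receptor family and brings remnant particles into cells. At its brighter probeset, 203381_s_at, USF1 arrays read 5.51, 5.14 and 5.76, against 4.50, 4.31 and 4.90 in Empty vector arrays. The difference was 0.90 (SE 0.19, 95% interval 0.47 to 1.33, limma adjusted p-value = 0.0219). The other probeset, 203382_s_at, read 5.47, 5.09 and 5.22 in USF1 arrays and 4.74, 4.41 and 4.84 in Empty vector arrays. There the difference was 0.60 (SE 0.14, 95% interval 0.28 to 0.92, limma adjusted p-value = 0.0308). The groups lay apart at both probesets, by 0.24 and 0.25. At 203381_s_at the gap was smaller than the SD of the USF1 arrays (0.31) and of the Empty vector arrays (0.30). At 203382_s_at it was larger than these SDs (0.19 and 0.23). In Empty vector arrays, replicate 3 was the highest and replicate 2 the lowest at both probesets. Both probesets kept their call without Empty vector replicate 1 (0.86 and 0.64). Both lost it without USF1 replicate 1 (limma adjusted p-value = 0.0802 and 0.108), USF1 replicate 3 (0.0927 and 0.107) or Empty vector replicate 2 (0.0756 and 0.0897). Empty vector replicate 3 had an actin value within those of the USF1 arrays, but its GAPDH value (-0.256) lay outside theirs (-0.345 to -0.322). With it as the single Empty vector array, the *APOE* differences were 0.57 and 0.42, while *APOC1* differed by 1.33 and *LRP10* by 0.86.

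*LRP10* encodes a receptor of the LDL receptor family that cycles between the trans-Golgi network, endosomes and the cell surface. Its probeset 201412_at read 7.42, 7.53 and 7.56 in USF1 arrays, against 7.02, 6.67 and 6.64 in Empty vector arrays. The USF1 arrays were close together (SD 0.075) and the Empty vector arrays were not (SD 0.21), with replicate 1 the highest of them. The log2 difference was 0.72 (SE 0.12, 95% interval 0.45 to 0.99, limma adjusted p-value = 0.0102). It was 0.85 (adjusted p-value = 0.000977) without Empty vector replicate 1. The call was lost without USF1 replicate 3 (0.70, limma adjusted p-value = 0.0563) and in no other omission of 1 array.

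The region around the start sites of these genes was read for the E-box that USF1 binds, for looser forms of it, and for other promoter sequences. RefSeq windows of 300 bases on GRCh38.p14, from 250 bases before to 50 after a start, were at hand for 6 of the 7 genes, 9 windows in all, and *SCARB1* was not among them. None of the 9 windows held the palindromic E-box CACGTG, which 7.26% of all 35116 windows held. The form CANNTG was in 4 of 9 windows and in 68.7% of all. The letters ACGTG, which make up the larger part of the E-box, were in the windows of *APOC1* and *LRP10* only, 2 of 9 windows against 21.4% of all, on either strand. They are shown here because *APOC1* and *LRP10* are among the genes that rose, on the strand of the gene and 5′ to 3′, with the matched letters in capitals.
APOC1, chr19:44914573-44914602, plus strand, 86 bases before the start: gcagaggagaaaaACGTGggtggacagagg
LRP10, chr14:22871523-22871552, plus strand, 204 bases before the start: cgtcctttgacaaACGTGtgacaaacatat
LRP10, chr14:22871564-22871593, plus strand, 163 bases before the start: cctgtaacgacaaACGTGttacaccccaag
The *LRP10* matches stand in a repeat, GACAAACGTG and the T after it, whose copies begin 41 bases apart. Matches to CANNTG stood in the *APOC1* window 128 bases and in the *LRP10* window 192 and 51 bases before the start, and these do not overlap the ACGTG matches.
APOC1, chr19:44914532-44914561, plus strand: tgcccgggacccCACCTGaccccaacgctc
LRP10, chr14:22871536-22871565, plus strand: acgtgtgacaaaCATATGacaaacatgtcc
LRP10, chr14:22871677-22871706, plus strand: ggttaaggcgagCAAGTGggtgtggcccgt
*APOE* and *NPC2* held CANNTG in 1 of 3 and 1 of 2 windows, and *LRP8* and *NPC1* in none. The sterol regulatory element, read as TCACNCCAC, was in none of the 9 windows and in 1.13% of all. The GC box GGGCGG, common in promoters of any kind, was in 7 of 9 windows and in 44.95% of all. A match of letters is a description and no evidence of binding or of a link with a rise. The CANNTG matches of *APOE*, which rose, and of *NPC2*, which did not pass, are not printed.

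*SCARB1* encodes scavenger receptor class B type 1, the HDL receptor. The brighter of its probesets, 1552256_a_at, read 6.76, 6.47 and 6.56 in USF1 arrays, against 6.49, 6.13 and 5.98 in Empty vector arrays, so that Empty vector replicate 1 reached above the lowest USF1 array. Its log2 difference was 0.40 (SE 0.14, 95% interval 0.07 to 0.72, limma adjusted p-value = 0.0981). At 201819_at, USF1 arrays read 5.49, 5.35 and 5.46 and Empty vector arrays 5.36, 4.96 and 4.98, with the same array reaching into the USF1 range. This probeset differed by 0.33 (SE 0.12, 95% interval 0.06 to 0.61, limma adjusted p-value = 0.101). Without Empty vector replicate 1 both were called, at 0.54 and 0.46 (limma adjusted p-value = 0.0162 and 0.0147), and neither was called when any other array was left out. With all 6 arrays *SCARB1* passed at both probesets when arrays were weighted (limma adjusted p-value = 0.0144 and 0.0139) and at 1552256_a_at with the replicate number as a block (0.0388).

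*LRP8*, also known as apolipoprotein E receptor 2, is a receptor for APOE and for reelin in neurons. USF1 arrays read 4.98, 4.82 and 4.86 at 205282_at, against 4.61, 4.64 and 4.45 in Empty vector arrays, and the groups lay 0.18 apart. The log2 difference of 0.32 (SE 0.09, 95% interval 0.11 to 0.53, limma adjusted p-value = 0.0584) fell short of the threshold. It passed once array medians were made equal (0.39, adjusted p-value = 0.0255) or after a further quantile normalization (0.37, adjusted p-value = 0.0307), both from limma. *LRP8* was called in none of the fits without 1 array, and differed by 0.34 (limma adjusted p-value = 0.0594) without Empty vector replicate 1.

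The transporters of late endosomes did not pass. *NPC1* read 6.33, 6.05 and 6.32 in USF1 arrays and 6.52, 6.32 and 6.17 in Empty vector arrays at 202679_at, a difference of -0.11 (SE 0.12, 95% interval -0.38 to 0.17, limma adjusted p-value = 0.581). Expressed as a fold, this interval runs from 0.768 to 1.12. *NPC2* had values of 8.13, 7.93 and 8.23 in USF1 arrays and 8.11, 7.85 and 8.001 in Empty vector arrays at 200701_at, a difference of 0.11 (SE 0.11, 95% interval -0.14 to 0.36, limma adjusted p-value = 0.535), or 0.905-fold to 1.29-fold. For both genes the groups overlapped, and without Empty vector replicate 1 the differences were -0.015 for *NPC1* and 0.17 for *NPC2*, neither of them called. The *LRP10* difference lies outside both intervals, and changes within them cannot be told from none with these arrays.

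**Figure D2:**
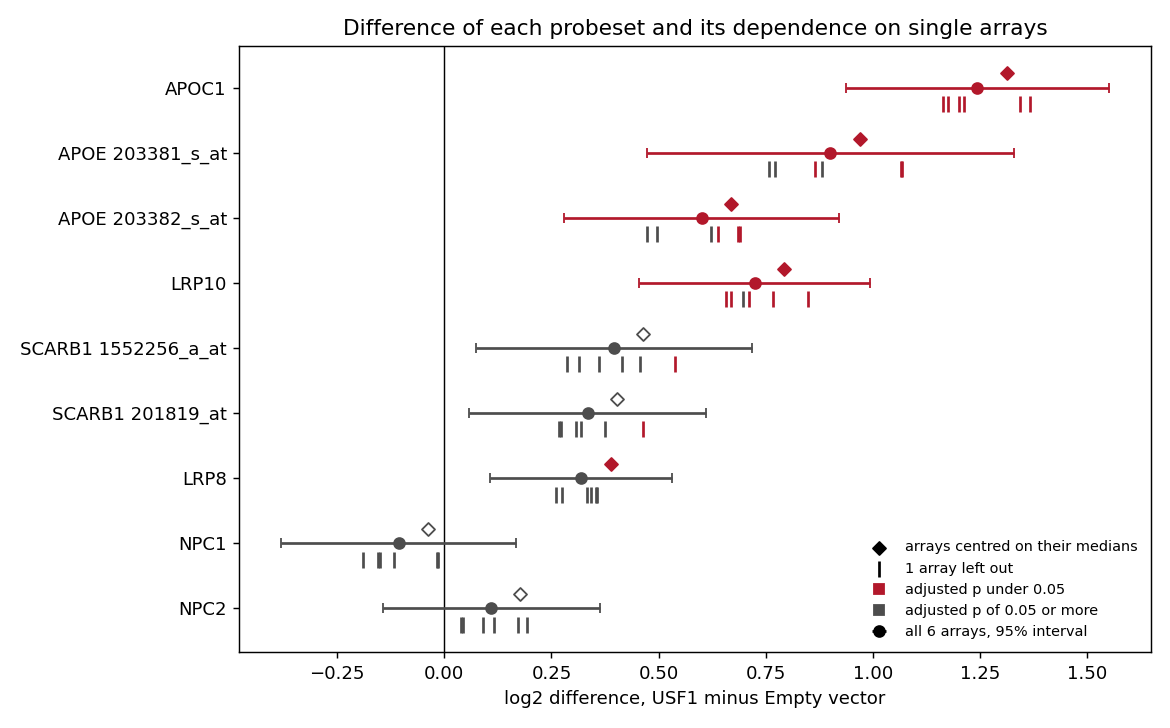
Log2 difference of USF1 minus Empty vector (horizontal axis) for each of the 9 probesets (vertical axis), as a circle with its 95% interval for all 6 arrays, a diamond with array medians made equal, and ticks for the fits without 1 array, in red where the limma adjusted p-value lies under 0.05. *APOC1* is red throughout, *LRP10* loses its call once, *APOE* 3 times at each probeset, and both *SCARB1* probesets are red in 1 fit, the one without Empty vector replicate 1.

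On some arrays most of the 9 probesets lay on the same side of their group mean. USF1 replicate 2 was below the mean of its group at 8 of the 9 probesets, where 48.0% of all probesets were, and *LRP10* was the exception. Empty vector replicate 2 was below its group mean at 8 of 9 as well (51.1% of all probesets), with *LRP8* as the exception. Empty vector replicate 1 was above its group mean at 8 of 9 (64.8% of all probesets), all but *APOE* at 203381_s_at. Median deviations of the 9 probesets on these arrays were -0.17, -0.14 and 0.18. USF1 replicate 1 was above its group mean at 8 of 9 (63.2% of all probesets) and USF1 replicate 3 at 6 of 9 (34.6%). Empty vector replicate 3 was below its group mean at 6 of 9, near the 64.4% of all probesets. These counts are not independent, since deviations in a group sum to 0 and *APOE* and *SCARB1* have 2 probesets each.

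The 7 genes belong to pathways whose other measured genes changed about as often as genes at large. Lists of 7 kinds were written for apolipoproteins, receptors and their partners, sterol transport, efflux and sterol sensing, with earlier results of these arrays known. Apart from the 7 genes, 47 genes of these lists were measured. Of these 5 rose and 1 fell with limma, where 5.18% of all named genes rose and 8.89% fell. In either direction 12.8% changed, against 14.1% of all named genes, and the median log2 difference of the 47 genes was 0.006. Among apolipoproteins, 4 of 15 were measured, and besides *APOC1* and *APOE* these were clusterin (*CLU*, apolipoprotein J), at 0.29 (SE 0.13, limma adjusted p-value = 0.159), and *APOA5*, an activator of lipoprotein lipase, at 0.04 (SE 0.09, adjusted p-value = 0.781).

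In the LDL receptor family 10 of 14 genes were measured, 2 rose and 0 fell, where 5.18% and 8.89% of all named genes did, and the median difference was -0.02. *LRP10* rose together with *LRP11*, a relative of these receptors, which read 8.26, 8.20 and 8.16 in USF1 arrays against 7.64, 7.82 and 7.56 in Empty vector arrays. *LRP11* differed by 0.53 (SE 0.10, limma adjusted p-value = 0.0142) and lost its call without USF1 replicate 1 or replicate 3. Several endocytic receptors of this family had values near or below 0 that did not pass: *VLDLR* at -0.02, *LRP1* at -0.03, *LRP6*, a co-receptor of Wnt signals, at -0.16, *LRP12* at -0.26 and the sorting receptor *SORL1* at -0.27. Family members thus covered a range from -0.27 to 0.72.

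Of 6 measured chaperones, adaptors and regulators of these receptors, 2 rose and 0 fell (5.18% and 8.89% of all named genes), with a median of 0.20, and a list so short can be read only gene by gene. *DAB2*, a clathrin adaptor that recruits the LDL receptor, read 4.82, 4.86 and 4.72 in USF1 arrays against 4.29, 4.22 and 4.16 in Empty vector arrays, a difference of 0.58 (SE 0.09, limma adjusted p-value = 0.00743), and was called without each array in turn. *MYLIP*, a ubiquitin ligase that marks receptors such as LRP8 for degradation, rose by 0.38 (SE 0.09, limma adjusted p-value = 0.0326) at the brightest of its 4 probesets, the one of these that was called. Without 1 array *MYLIP* was called in 1 of 6 fits, that without Empty vector replicate 1. *LRPAP1*, the chaperone that keeps ligands off newly made receptors, had a difference of 0.34 (SE 0.12, limma adjusted p-value = 0.0951), with its groups apart. Of 4 measured scavenger receptors none was called, and beside *SCARB1* these were *SCARB2* (0.07), *SCARF2* (0.01) and *COLEC12* (-0.07).

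Late endosomal and intracellular sterol transport was the most fully measured list, with 17 of 18 genes, of which 2 rose and 0 fell, against 5.18% and 8.89% of all named genes, and a median of 0.08. *OSBPL10*, of the family of oxysterol-binding proteins, read 5.31, 5.24 and 5.29 in USF1 arrays against 4.58, 4.65 and 4.37 in Empty vector arrays. Its difference of 0.75 (SE 0.10, limma adjusted p-value = 0.0051) was called without each array in turn. *LAMP1*, a glycoprotein of the lysosomal membrane, rose by 0.43 (SE 0.10, limma adjusted p-value = 0.0331) at the brightest of its 3 probesets, 2 of which were called, and lost its call in 4 of the 6 fits without 1 array. *LIPA*, the acid lipase that frees the cholesterol handed to NPC2, had a difference of 0.11 (SE 0.09) and *SOAT1*, which esterifies cholesterol, of 0.08 (SE 0.10), and neither passed.

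Of 13 genes of efflux and lipoprotein remodelling 3 were measured, none of which was called: the phospholipid transfer protein *PLTP* (0.02, SE 0.12), the nuclear receptor *RXRA* (-0.11, SE 0.12) and its partner *NR1H3* (-0.21, SE 0.16), which encodes the oxysterol receptor LXR alpha. In sterol sensing, 11 of 14 genes were measured, 0 rose and 1 fell, against the same 5.18% and 8.89%, and the median was -0.12. The call was that of *MBTPS2*, the site-2 protease that releases SREBP from the membrane, at 7.99 ± 0.04 (SD, n = 3) in USF1 arrays and 8.33 ± 0.06 (SD, n = 3) in Empty vector arrays. It fell by 0.34 (SE 0.08, limma adjusted p-value = 0.0357) at 1 of 2 probesets, and the call was lost in each fit without 1 array and once array medians were made equal (-0.27, adjusted p-value = 0.0551). *SREBF2*, the master regulator of cholesterol synthesis, was at -0.05 (SE 0.10) and its target *HMGCS1* at -0.12 (SE 0.12), and neither passed.

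**Figure D3:**
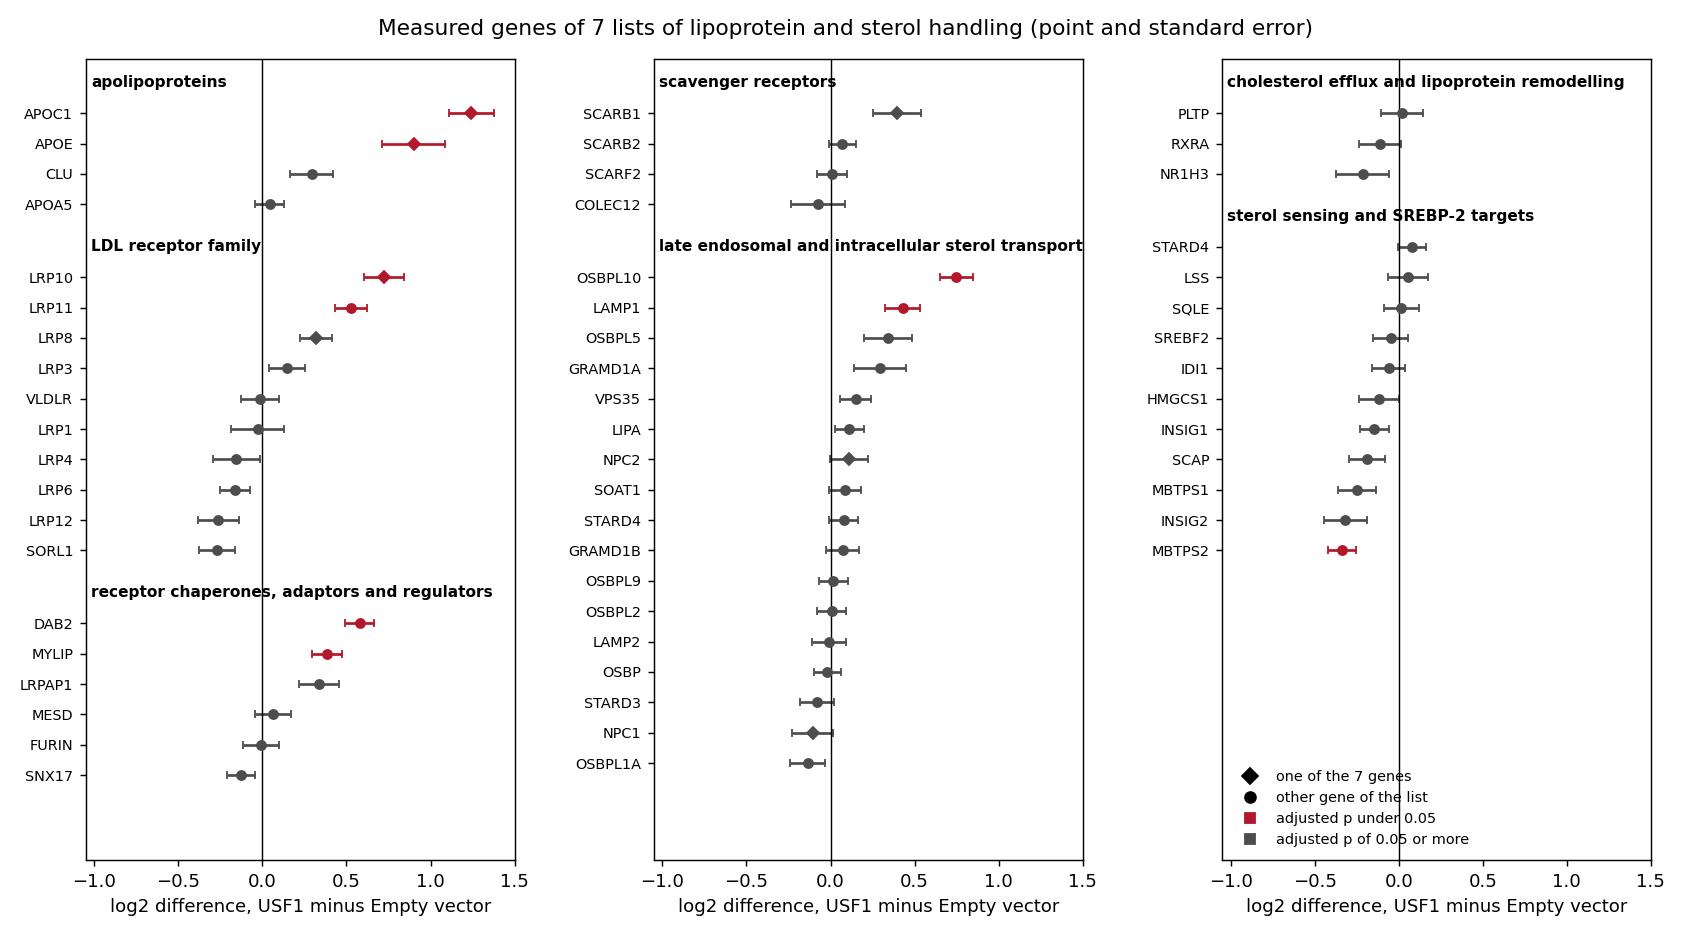
Log2 difference of USF1 minus Empty vector (horizontal axis) with its standard error for each measured gene (vertical axis) of 7 lists, diamonds for the 7 genes and circles for the others, in red where the limma adjusted p-value lies under 0.05. The red points right of 0 are *APOC1*, *APOE*, *LRP10*, *LRP11*, *DAB2*, *MYLIP*, *OSBPL10* and *LAMP1*, and *MBTPS2* is the single red point left of it.

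*APOE* and *APOC1* are neighbours on chromosome 19, with no coding gene between them, so the coding genes around each of the 7 were read as well. Besides these, the 3 nearest measured coding genes on each side, passing over any that were not measured, made up 36 genes. Of these 3 rose and 3 fell, near the 5.18% and 8.89% of all named genes, with a median of -0.12. On 1 side of the *APOE* and *APOC1* pair the nearest measured gene, *NECTIN2*, a cell adhesion molecule, read 6.13, 6.10 and 5.93 in USF1 arrays and 5.98, 5.72 and 5.95 in Empty vector arrays. *NECTIN2* differed by 0.17 (SE 0.10, limma adjusted p-value = 0.304). On the other side *CLPTM1* differed by 0.18 (SE 0.13, limma adjusted p-value = 0.371). Next along, *RELB*, a subunit of NF-kappaB, rose by 0.45 (SE 0.08, limma adjusted p-value = 0.0132) and *CLASRP*, a splicing factor, fell by 0.35 (SE 0.08, adjusted p-value = 0.0283). Calls of both were lost without USF1 replicate 1, USF1 replicate 3 or Empty vector replicate 2, and that of *CLASRP* without Empty vector replicate 3 and with equal medians too.

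No neighbour of *LRP10*, *SCARB1* or *NPC2* was called. Next to *LRP10*, *REM2* was at 0.34 (SE 0.15) and *MRPL52* at -0.28 (SE 0.12). Around *SCARB1*, *AACS*, which feeds acetoacetate into lipid synthesis, had the largest value, 0.30 (SE 0.10, limma adjusted p-value = 0.0771), with its groups apart. *ISCA2*, the nearest gene to *NPC2*, was at -0.19 (SE 0.08). Among the measured neighbours of *LRP8*, *YIPF1*, 523.7 kb away, fell by 0.36 (SE 0.09). Among those of *NPC1*, *RIOK3*, 23 kb away, fell by 0.43 (SE 0.12, 1 of its 3 probesets called). *CABLES1*, 245.7 kb from *NPC1*, rose by 0.50 (SE 0.09, 1 of its 2 probesets called), and *GATA6*, 1303.7 kb from it, by 0.43 (SE 0.12). Adjusted p-values of these genes from limma were 0.0163 to 0.0485. Each of these calls was lost without at least USF1 replicate 1, USF1 replicate 3 or Empty vector replicate 2, and those of *YIPF1* and *RIOK3* also with equal medians.

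**Figure D4:**
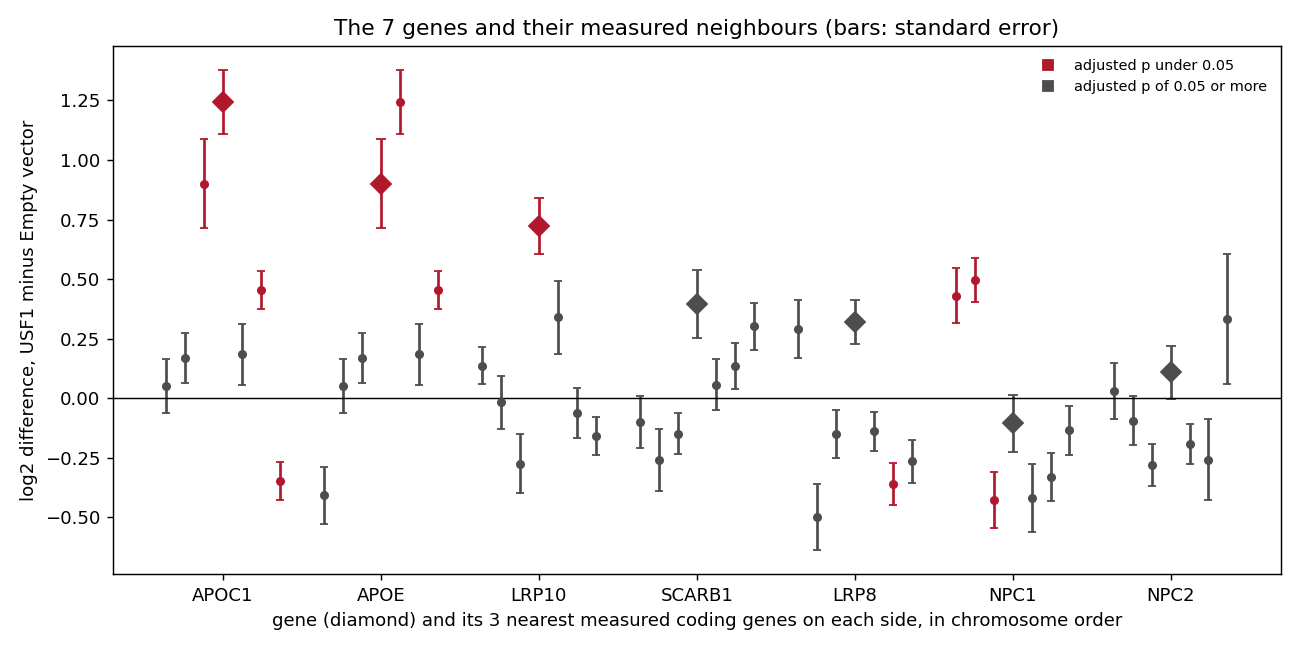
Log2 difference of USF1 minus Empty vector (vertical axis) with its standard error for each of the 7 genes (diamonds) and its 3 nearest measured coding genes on each side in chromosome order (circles), in red where the limma adjusted p-value lies under 0.05. *APOC1* and *APOE* each appear as the neighbour of the other, and the circles beside *LRP10*, *SCARB1* and *NPC2* are all grey.

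For each of the 7 genes, the named genes with the nearest profile over the 6 arrays were found by the root mean square distance between log2 values, each profile centred on its own mean. Such a list rests on 6 points of the same arrays and is a description. Nearest to *APOC1* were *BATF3*, a transcription factor of the leucine zipper class (distance 0.06), *ELL3* (0.091) and the carbonyl reductase *CBR3* (0.093). *BATF3* read 7.11, 6.83 and 7.11 in USF1 arrays and 5.91, 5.55 and 5.55 in Empty vector arrays, so it shared the low value of USF1 replicate 2 and the high value of Empty vector replicate 1. *APOE* had no neighbour so close, and its nearest were *IGFBP7* (0.15), which binds insulin-like growth factors, *PIMREG* (0.16) and *C14orf132* (0.16). Nearest to *LRP10* were *SLC27A2*, an acyl-CoA synthetase of very long chain fatty acids (0.062), *F12*, coagulation factor XII (0.067), and *SHISA2* (0.071). *SCARB1* lay nearest to *IMPA2*, *SH2D2A* and *C3orf70* (0.039 to 0.049), and *LRP8* to *DCBLD1*, *LDLRAD3* and *PPP1R14C* (0.025 to 0.035). *NPC1* was nearest to *TUBGCP5*, *TUB* and *SLC30A9*, and *NPC2* to *TRA2A*, *GSTO1* and *TSPAN3*.

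**Figure D5:**
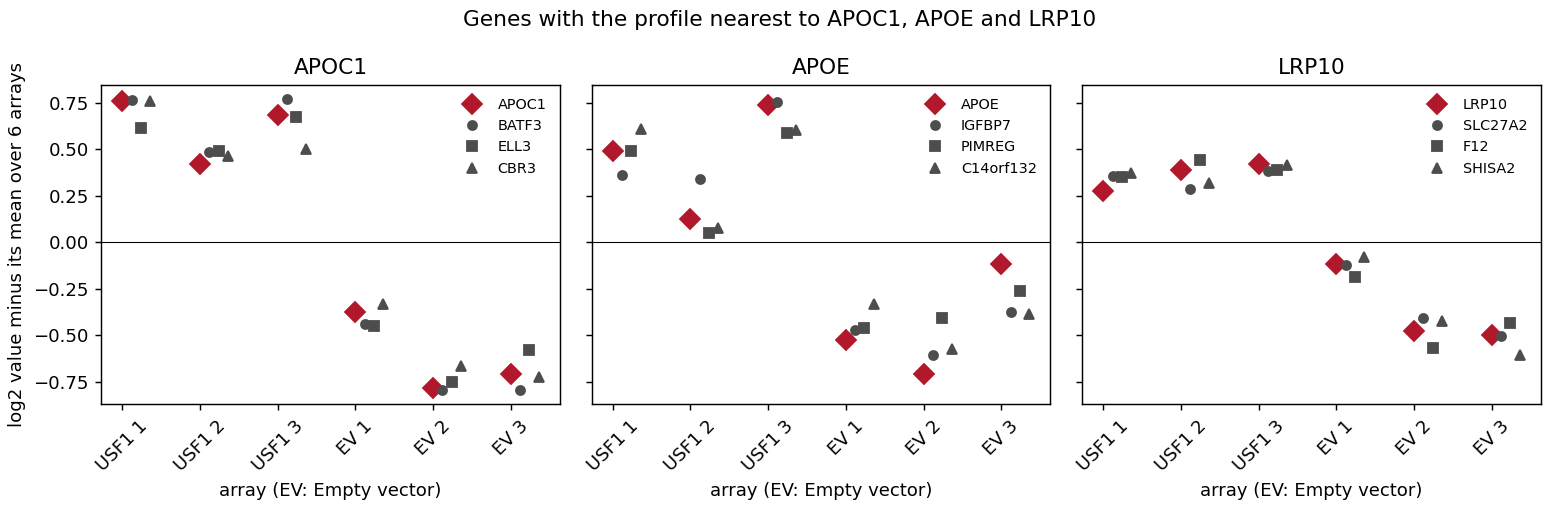
Log2 values minus their mean over the 6 arrays (vertical axis) for *APOC1*, *APOE* and *LRP10* (red diamonds) and the 3 named genes nearest to each (grey), by array (horizontal axis). Among the Empty vector arrays replicate 3 is the highest for *APOE*, and replicate 1 for *APOC1* and *LRP10*.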

How the data were processed

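The deposited values are RMA expression on the log2 scale for 16569 probesets, 33 of them controls, on 6 arrays, assigned to groups and replicates by their titles. By their methods, the authors imported the arrays with justRMA in R 2.8.0 (background subtraction and quantile normalization), masked probes that miss their target or are not specific, dropped probesets of fewer than 7 probes or with over 50% absent calls, and ran ComBat, whose batches the sources used here do not give. Genes these filters removed are not analysed here, and the spread that ComBat left enters the p-values.

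Differences were fitted with lmFit and eBayes of limma 3.58.1 in R 4.3.3 (prior of 4.53 degrees of freedom), without covariates. The fit was also run on simulated independent values. These held no outlying array and no difference in RNA quality, so that run cannot speak to either. Names came from the platform annotation, 15099 probesets with 1 gene, 570 with several and 900 with none, updated to GRCh38.p14 symbols. A gene was represented by its probeset with the highest mean. The genes named are the 7, up to 4 called genes a list, lists of few measured genes, measured neighbouring coding genes and the 3 nearest profiles. Others were chosen after their values were seen. The 7 genes and the lists were chosen with earlier results of these data known. Alternatives were other tests, priors, weights, scalings and filters, a block for the replicate number and each array left out in turn. Leaving out Empty vector replicates 1 and 2 together was added after the data were seen. The number of arrays limits the precision.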

Additional observations from a re-analysis of the deposited data

How the results depend on the processing

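*LRP8* was among the probesets that the filter on dim ones removed and has no value there. *DAB2* and *OSBPL10* were removed as well, and 6 genes of the lists were called upward with that filter, against 8 over all probesets. The lists that hold these genes went from 2 upward calls to 1 each. The signs of all 9 probeset differences held in every alternative except *NPC1*, which was 0.058 without Empty vector replicates 1 and 2. Under a t-test 3419 probesets (unequal variances) and 4265 (equal variances) passed at the methods' unadjusted threshold, with 5 of the 9 probesets among them, all upward. The authors' t-test was that of unequal variances, since the p-value they list for *APOC1* is the one it gives (0.00178). After Benjamini-Hochberg adjustment 1 and 160 probesets were called, against 1974 with limma (0 and 84 higher, 1 and 76 lower), 0 of the 7 genes, and 0 and 1 genes of the 7 lists upward and 0 downward. So *APOC1* (1.24), *APOE* (0.90 and 0.60) and *LRP10* (0.72) lost their calls there, at adjusted p-values of 0.0610 to 0.201 from the t-tests. With array weights 3688 probesets (1277 higher, 2411 lower), 5 of the 7 genes and 13 list genes upward were called, among them *SCARB1* (0.52 and 0.43) and *LRP8* (0.35). Centring called 1041 higher and 815 lower probesets, against 715 and 1259 without it, and 0 list genes lower, and a further quantile normalization 976 and 959. *LRP8* was called under both (0.39 and 0.37).

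The replicate block called 2875 probesets, 1967 of them lower, and *SCARB1* at 1552256_a_at (0.40, adjusted p-value = 0.0388 from limma), and changed no other call among the 9 probesets. Deviations of same-numbered arrays correlated at 0.096, 0.25 and 0.13, and each array correlated best with its own number. Whether the numbers pair the arrays is not given and cannot be told from these values. The main fit is therefore unpaired, with the block as an alternative. Leaving out 1 array gave 369 to 2222 called probesets (219 to 877 higher, 147 to 1569 lower). Omitting USF1 replicate 1 gave 466, USF1 replicate 3 gave 369, Empty vector replicate 2 gave 574 and Empty vector replicate 3 gave 1110. These fits called 1 to 4 of the 7 genes upward (1 without USF1 replicate 3), and 3 to 10 genes of the lists upward and 0 downward, against 8 and 1 with all arrays. Differences ranged from 1.16 to 1.37 for *APOC1*, 0.76 to 1.07 and 0.47 to 0.69 for *APOE*, 0.66 to 0.85 for *LRP10*, 0.29 to 0.54 and 0.27 to 0.46 for *SCARB1*, 0.26 to 0.36 for *LRP8*, -0.19 to -0.015 for *NPC1* and 0.04 to 0.19 for *NPC2*. Without Empty vector replicates 1 and 2, where the lone Empty vector array is taken to vary like the USF1 arrays, 277 probesets were called (217 higher, 60 lower), 4 list genes rose and 0 fell, and *APOE* was not called (0.57 and 0.42). The cause of these changes was not tested, beyond the smaller number of arrays where arrays were left out.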
